A study of Homo sapiens with 59 samples.

Results

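Cells of Jurkat, a human leukaemia line of T cell origin, were kept for 3 days in medium labelled 25% isoleucine, and their mRNA was compared with that of cells in a branched-chain amino acid control medium. The isoleucine group held 5 libraries and the control group held 4, with replicate numbers 1, 3, 4 and 5. The level against which 25% was set, and what the control medium contained, are not stated in the labels. The members described are the 16623 genes, of 27523 in the table of normalised counts, whose mean over these 9 libraries was at least 10, and 10900 genes fell below that minimum. The gene just inside it averaged 10.0 normalised counts and the gene just outside averaged 9.999. The same 4 control libraries also served cells kept for 3 days at 25% leucine and at 25% valine, with 5 libraries each, out of 59 libraries in the series. The labels do not tell whether replicates were grown separately, so p-values measure the spread between these libraries.

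Isoleucine is, with leucine and valine, 1 of the 3 branched-chain amino acids, which human cells cannot make. They enter largely through the same exchanger, formed by SLC7A5 and SLC3A2, and are broken down by the same aminotransferases and the same branched-chain ketoacid dehydrogenase complex. Each is loaded onto its own tRNAs by its own synthetase, and isoleucine also yields propionyl-CoA when it is degraded. A shortage of an amino acid leaves its tRNA uncharged, which the kinase GCN2, encoded by EIF2AK4, detects, and translation of the transcription factor ATF4 then increases. Leucine is the branched-chain amino acid best known for signalling to the growth kinase mTORC1. The comparison asks which mRNAs differ when isoleucine alone of the 3 is lowered.

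Normalised counts summed to 16.4 to 17.1 M per library in isoleucine-restricted cells and to 16.3 to 19.9 M in control cells, with the highest total in control library 1. Pairs of libraries within the isoleucine group correlated at 0.971 to 0.979 over the genes tested, on the log2 scale. Pairs within the control group correlated at 0.94 to 0.965, so the control libraries were the more variable. All 15 T cell markers were detected, and their summed level was 65300 to 69600 in isoleucine-restricted libraries and 63500 to 96700 in control libraries. The myeloid markers LYZ, ITGAM, CSF1R, FCGR1A and MPO and the B cell markers MS4A1 and CD22 were at 0 or not listed. The myeloid marker CD14 was at 0 to 6.87 in isoleucine-restricted and 4.22 to 24.5 in control libraries. CD163 was at 0 in every isoleucine-restricted library and at most 4.48 in control libraries. Summed over 7 myeloid markers the level was 0 to 6.87 in isoleucine-restricted and 6.47 to 29.0 in control libraries. The B cell marker CD79A was present in every library, and the summed level of 6 B cell markers was 335 to 358 in isoleucine-restricted libraries and 298 to 521 in control libraries. Summed over 6 markers of fibroblasts, of which LUM was at 0, the level was 265 to 423 in isoleucine-restricted libraries and 292 to 1300 in control libraries. The highest value belonged to control library 4, which had 525 normalised counts of the collagen gene COL3A1, against at most 26.4 in isoleucine-restricted libraries and at most 15.6 in the other control libraries. Control library 4 was also the highest for CD14, for the epithelial marker KRT8 (127) and for the NK cell marker KLRD1 (68.9). The part of these transcripts in the results below was not tested.

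No gene passed the test. Of 16623 genes, 0 (0%) were called by limma at an adjusted p below 0.05, and the gene ranked first had an adjusted p of 0.0582. At an unadjusted p below 0.05 there were 872 genes (5.25%), of which 502 (3.02%) were higher and 370 (2.23%) lower in isoleucine-restricted cells. The groups did not overlap for 333 genes (2%), with 197 (1.19%) higher and 136 (0.818%) lower. A difference of at least 2-fold was fitted for 407 genes (2.45%), and 377 of these had a mean below 100 normalised counts in their higher group. The 95% interval of the log2 fold change lay within 2-fold in both directions for 77.36% of genes, and for 97.61% of the 11149 genes with a mean of at least 100 in their higher group. Without control library 4 no gene was called either and the count at an unadjusted p below 0.05 was 1630 (9.84%). Without isoleucine library 1 that count was 559 (3.36%).

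Against the same 4 control libraries, 1277 of 16488 genes (7.75%) were called for leucine and 2096 of 16771 (12.5%) for valine. In leucine-restricted cells 563 genes (3.41%) rose and 714 (4.33%) fell, and in valine-restricted cells 861 (5.13%) rose and 1235 (7.36%) fell. The median standard error of a log2 fold change was 0.172 for isoleucine, 0.181 for leucine and 0.212 for valine. The median absolute log2 fold change was 0.149 for isoleucine, 0.255 for leucine and 0.306 for valine. Because the 3 restrictions share their controls, the responses were compared directly, by subtracting from each restricted library the control mean of its own table and testing the restricted libraries against each other. The isoleucine response differed from the leucine response for 2844 of 16217 genes (17.5%), being higher for 1483 (9.14%) and lower for 1361 (8.39%). It differed from the valine response for 4647 of 16302 genes (28.5%), higher for 2348 (14.4%) and lower for 2299 (14.1%). At least 2-fold were 229 of the differences from leucine (1.41% of genes tested) and 667 of those from valine (4.09%).

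**Figure D1:**
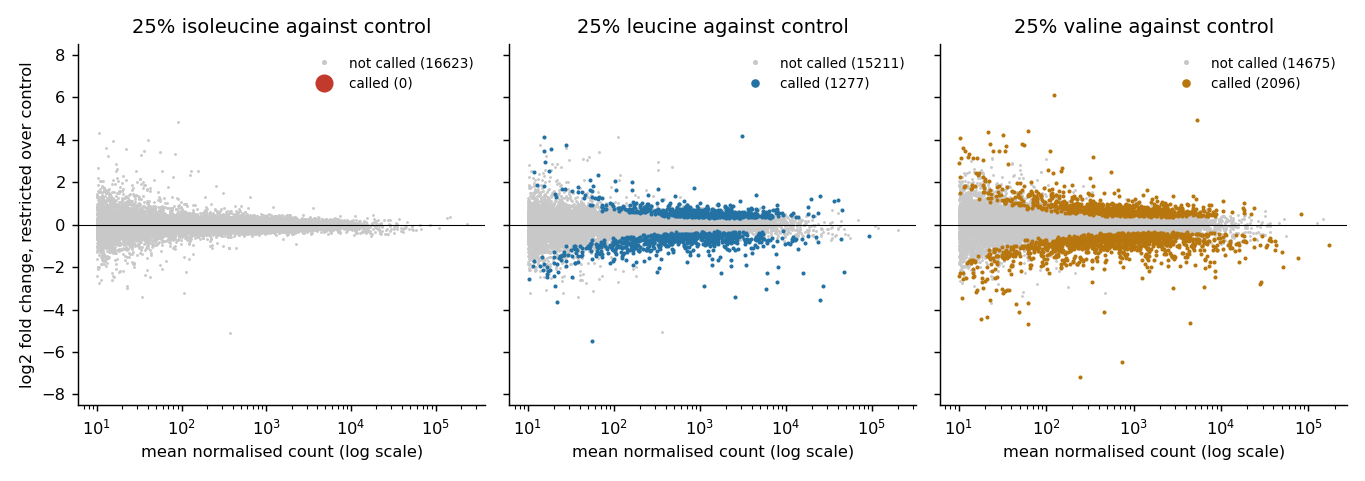
Log2 fold change, restricted over control, of each gene tested (vertical axis) against its mean normalised count (horizontal axis, log scale) at 25% isoleucine, 25% leucine and 25% valine, all set against the same 4 control libraries. Coloured points are called genes, 0 for isoleucine, 1277 for leucine and 2096 for valine.

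Genes of the synthetases that load the 3 amino acids onto tRNA differed between the restrictions. IARS1 (chromosome 9, 92210207 to 92293697, GRCh38.p14) encodes the cytosolic isoleucyl-tRNA synthetase. It had 8256, 8361, 7584, 8529 and 7709 normalised counts in isoleucine-restricted libraries and 6412, 6333, 8057 and 7175 in control libraries. All but control library 4 lay below every isoleucine-restricted library, and the log2 fold change was 0.21 ± 0.092 (SE; limma, unadjusted p = 0.0373, adjusted p = 0.797). The isoleucine response of IARS1 exceeded its leucine response by 0.23 on the log2 scale (95% interval 0.11 to 0.36, limma, adjusted p = 0.0125). It exceeded its valine response by 0.37 (interval 0.094 to 0.64, adjusted p = 0.0451 by limma). Valine library 2 was low for this gene, at 4323 normalised counts against 6874 to 7152 in the other valine libraries, and without it the difference was 0.23 with an adjusted p of 0.00484 by limma. The call against valine was lost under 11 of 19 alternatives (limma adjusted p = 0.0523 to 0.104 in these), and that against leucine under 0 of 19.

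LARS1, the leucyl-tRNA synthetase gene, had 2188, 2013, 2123, 2143 and 2074 normalised counts in isoleucine-restricted libraries and 2584, 1620.5, 2189 and 1889.5 in control libraries, with overlapping groups. Its isoleucine response lay -0.29 from its leucine response on the log2 scale (interval -0.44 to -0.14, limma adjusted p = 0.0121), that is, below it. VARS1, the valyl-tRNA synthetase gene, had 2632, 2696, 3073, 2454 and 2538 normalised counts in isoleucine-restricted libraries and 2950.3, 2714, 2049 and 2688 in control libraries, again overlapping. It rose at 25% valine, by 0.73 on the log2 scale (limma adjusted p = 0.00297), and its isoleucine response lay below its valine response (difference -0.67, interval -0.84 to -0.51, adjusted p = 4.94e-05). Among the 3 restrictions the fitted change of IARS1 was thus highest at 25% isoleucine, that of LARS1 at 25% leucine and that of VARS1 at 25% valine. Of these changes only that of VARS1 was called against the control, and those of IARS1 and LARS1 were not. For LARS1 the isoleucine and valine responses were not told apart (difference -0.13, interval -0.34 to 0.069). IARS2, for the mitochondrial isoleucyl-tRNA synthetase, had a log2 fold change of 0.034 (interval -0.14 to 0.21). It did not follow IARS1: its fitted change was highest at 25% leucine, at 0.22, and its isoleucine response lay below its leucine response (difference -0.18, interval -0.29 to -0.069, limma adjusted p = 0.0274), a call lost under 8 of 19 alternatives. Over all 20 cytosolic synthetase genes the isoleucine median was -0.0174, and 0.0445 without control library 1, and IARS1 was the only member at an unadjusted p below 0.05. Of the same 20 genes 4 fell and 0 rose at 25% leucine, where 4.33% and 3.41% of all genes tested did. At 25% valine 7 fell and 2 rose, against 7.36% and 5.13% of all genes tested. QARS1, the glutaminyl-tRNA synthetase gene, was one of those that fell, and its isoleucine response exceeded the leucine and valine responses by 0.65 and 1.48 (limma adjusted p = 3.07e-05 and 7.24e-08).

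Transport and breakdown of the branched-chain amino acids showed no call. SLC7A5, which carries large neutral amino acids into the cell, had 29958 to 36000.5 normalised counts in isoleucine-restricted libraries and 30372 to 36988 in control libraries, and SLC3A2, its heavy chain, had 13854 to 15189 in isoleucine-restricted and 14255 to 22862 in control libraries. SLC43A1 is a second carrier of branched-chain amino acids. It had 1181, 1103, 1132, 1069.8 and 993 normalised counts in isoleucine-restricted libraries and 1534, 1086, 909 and 1092 in control libraries, a log2 fold change of -0.052 (interval -0.34 to 0.24). It fell by 0.89 on the log2 scale at 25% leucine and by 0.78 at 25% valine, and the isoleucine response was higher than both, by 0.83 and 0.73 (limma adjusted p = 6.33e-06 and 0.000232). Of 21 amino acid transporter genes measured, 0 were at an unadjusted p below 0.05 for isoleucine and the median was 0.0652, 0.0251 without control library 1 and 0.146 without control library 4. Of 20 tested in the other tables, 5 fell at 25% leucine and 7 at 25% valine, and 7 and 13 had a higher isoleucine response. Over all genes tested 4.33% fell at 25% leucine and 7.36% at 25% valine, and the isoleucine response was higher for 9.14% and 14.4%.

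The list of 26 branched-chain catabolism genes had a median log2 fold change of -0.0507 for isoleucine, 0.00598 without control library 1 and -0.00427 without control library 4. BCKDHA encodes a subunit of the branched-chain ketoacid dehydrogenase. It had 1412, 1798, 1775, 1653 and 1503 normalised counts in isoleucine-restricted libraries and 2607, 1936, 1824 and 1836 in control libraries. The groups did not overlap, control library 1 was well above the other 3, and the log2 fold change was -0.32 ± 0.12 (limma unadjusted p = 0.0208, adjusted p = 0.797). BCKDHA fell by 0.54 at 25% leucine and by 1.09 at 25% valine on the log2 scale. Its isoleucine response was higher than its valine response by 0.77 (interval 0.52 to 1.01, limma adjusted p = 0.000338), and the difference from the leucine response was 0.21 (interval 0.031 to 0.40, adjusted p = 0.104). BCKDK, the kinase that switches this complex off, had 696 to 812 normalised counts in isoleucine-restricted libraries and 742 to 1013 in control libraries. Its isoleucine response exceeded its valine response, in which it fell, by 0.87 (limma adjusted p = 1.17e-05).

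HIBCH encodes a hydrolase of the valine pathway that isoleucine does not use. It had 546, 524, 591, 588 and 610.1 normalised counts in isoleucine-restricted libraries and 492, 492, 498 and 476 in control libraries, and every isoleucine-restricted value lay above every control value. The log2 fold change was 0.22 ± 0.093 (limma unadjusted p = 0.034, adjusted p = 0.797). BCKDHA and HIBCH were the only members of the list whose groups did not overlap. Over all genes 1.19% were higher and 0.818% lower without overlap. At an unadjusted p below 0.05, 1 of the 26 members was higher and 1 lower, where 3.02% and 2.23% of all genes were. The aminotransferase genes overlapped between groups: BCAT1 had 5082 to 6156 normalised counts in isoleucine-restricted libraries and 2819 to 6047 in control libraries, and BCAT2 had 544 to 723 in isoleucine-restricted and 623 to 884 in control libraries. Against the valine response, the isoleucine response was higher for BCAT1 (0.63, limma adjusted p = 0.0357) and lower for BCAT2 (-0.36, limma adjusted p = 0.0476), calls lost under 9 and 10 of 19 alternatives.

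Of the 33 gene lists examined, that of endoplasmic reticulum stress had the largest median difference between the isoleucine response and each of the others, 1.82 from leucine and 1.63 from valine. Its chaperone genes answer to unfolded protein in that compartment, in part through the endoplasmic reticulum stress element of their promoters. Of 26 genes of endoplasmic reticulum stress, 0 were called for isoleucine and the median log2 fold change was -0.0359 (-0.0137 without control library 1), within a range of -0.308 to 0.283. At 25% leucine 22 of the 26 fell, with a median of -1.78, and at 25% valine 22 fell, with a median of -1.53. The isoleucine response was higher than the leucine response for 24 of 26 and higher than the valine response for 22 of 26. Over all genes tested it was higher for 9.14% and 14.4%, and 4.33% fell at 25% leucine and 7.36% at 25% valine.

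HSPA5, the Hsp70 chaperone BiP (chromosome 9, 125234853 to 125241343, GRCh38.p14), had 49059, 54481, 46463, 54660.0 and 51648 normalised counts in isoleucine-restricted libraries, against 54789, 50867, 52724 and 53896 in control libraries. The groups overlapped fully, and the log2 fold change was -0.052 (interval -0.26 to 0.15). In the separately scaled leucine table, HSPA5 had 3849.9 to 4726 normalised counts in leucine-restricted libraries against 48233 to 52165 in the same control libraries. The isoleucine response exceeded the leucine response by 3.51 (interval 3.36 to 3.66, limma adjusted p = 3.43e-13) and the valine response by 2.74 (interval 2.57 to 2.91, adjusted p = 1.45e-10). HSP90B1, the chaperone GRP94 (chromosome 12, 103930410 to 103947926), had 47353 to 56530.1 normalised counts in isoleucine-restricted libraries and 50040.5 to 55840.3 in control libraries, and its differences were 2.87 and 2.64. The disulphide isomerase gene PDIA4 had differences of 2.69 and 2.46, and HYOU1, another Hsp70-type chaperone of the compartment, had 2.24 and 1.56, all called.

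Promoters of HSPA5 and HSP90B1, from 250 bases before to 50 after the start of the gene (RefSeq, GRCh38.p14, 5′ to 3′), are shown because both genes fell at 25% leucine and 25% valine and overlapped their controls at 25% isoleucine. Capitals mark the fixed letters of the stress element, CCAAT and CCACG with 9 free bases between them, on either strand, and the E-box CACGTG.
HSPA5 (chr9:125241294-125241593, minus strand): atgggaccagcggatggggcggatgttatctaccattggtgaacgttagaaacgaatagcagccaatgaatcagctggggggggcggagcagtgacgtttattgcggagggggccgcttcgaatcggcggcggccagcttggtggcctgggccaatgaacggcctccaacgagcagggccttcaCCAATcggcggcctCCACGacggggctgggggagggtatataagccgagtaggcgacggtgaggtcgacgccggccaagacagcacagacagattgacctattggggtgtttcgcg
HSP90B1 (chr12:103930160-103930459, plus strand): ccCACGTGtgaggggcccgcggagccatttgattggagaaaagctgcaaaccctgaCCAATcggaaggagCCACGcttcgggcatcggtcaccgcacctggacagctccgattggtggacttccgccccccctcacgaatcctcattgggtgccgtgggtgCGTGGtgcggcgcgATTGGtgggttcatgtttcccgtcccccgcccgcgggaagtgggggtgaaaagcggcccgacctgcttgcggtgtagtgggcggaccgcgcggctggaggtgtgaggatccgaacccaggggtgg
HSPA5 holds 1 element on its own strand, beginning 66 bases before the start. HSP90B1 holds 1 on each strand and an E-box near the far end of the window. The element is present in 27 of 35116 promoters of this length (0.0769%) and CACGTG in 2548 (7.26%). A match in these letters is a description of the sequence and not a binding measurement.

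MANF and SDF2L1, which encode smaller proteins of the same compartment, and CRELD2 were lower in every isoleucine-restricted library than in control library 1. MANF had 9810.0, 10919.5, 10057, 11492 and 10175 normalised counts in isoleucine-restricted libraries and 16198, 10405, 10524 and 11039.7 in control libraries, and SDF2L1 had 3641, 4405, 4696, 4551 and 4010.3 in isoleucine-restricted and 8185, 4617, 4193 and 4745 in control libraries. Control library 1 was far above the other control libraries in both, and values of the remaining 3 lay within the isoleucine range or just above it. CRELD2 was the list's only gene whose groups did not overlap (1574 to 1918 in isoleucine-restricted and 1940.2 to 3156 in control libraries, log2 fold change -0.31, limma adjusted p = 0.797). DNAJB9, a co-chaperone of the compartment, pointed the other way, with 836, 944, 781, 899.6 and 855 normalised counts in isoleucine-restricted libraries and 653, 631, 814 and 748 in control libraries (log2 fold change 0.28, unadjusted p = 0.0191, adjusted p = 0.797, limma). It fell at 25% leucine and 25% valine, by 1.17 and 1.42 on the log2 scale.

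TXNIP and its relative ARRDC4 rose at 25% leucine and 25% valine and overlapped their controls at 25% isoleucine. Both encode arrestin-domain proteins that lower glucose uptake and are classic targets of the sugar-responsive factor MondoA, which binds E-box sequences. TXNIP had 350.1, 329, 286, 342 and 306 normalised counts in isoleucine-restricted libraries and 281, 271, 323 and 351 in control libraries, with overlapping groups and a log2 fold change of 0.078 (interval -0.19 to 0.34). It rose at 25% leucine, to 4975 to 5785 normalised counts against 258 to 338 in the control libraries of that table, and at 25% valine, to 8026 to 10314 against 271 to 358. The isoleucine response therefore lay -4.11 from the leucine response (interval -4.27 to -3.94, limma adjusted p = 2.85e-13) and -4.85 from the valine response (interval -5.05 to -4.65, adjusted p = 3.46e-12), on the log2 scale.

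ARRDC4 (chromosome 15, 97960703 to 97973833, GRCh38.p14) had 37.4, 82.7, 74.6, 59.3 and 65.1 normalised counts in isoleucine-restricted libraries and 64.6, 43.8, 81.5 and 61.1 in control libraries. Its log2 fold change was 0.0091 (interval -0.57 to 0.59), and the differences from the leucine and valine responses were -2.01 and -3.16, both called. Its promoter is shown, with CACGTG in capitals, 210 bases before the start.
ARRDC4 (chr15:97960453-97960752, plus strand): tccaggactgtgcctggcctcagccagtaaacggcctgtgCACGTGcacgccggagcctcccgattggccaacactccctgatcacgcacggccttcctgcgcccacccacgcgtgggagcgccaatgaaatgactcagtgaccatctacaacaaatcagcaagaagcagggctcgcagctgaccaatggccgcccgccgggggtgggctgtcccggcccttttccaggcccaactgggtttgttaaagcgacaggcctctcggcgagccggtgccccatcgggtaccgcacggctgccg
KLF10, a zinc-finger repressor induced by growth-inhibiting signals, had 203, 164, 212, 168 and 163 normalised counts in isoleucine-restricted libraries and 139, 149, 159 and 158 in control libraries. The groups did not overlap, the lowest isoleucine value being 163 and the highest control value 159, and the log2 fold change was 0.25 (interval -0.053 to 0.56, limma adjusted p = 0.797). The differences from the leucine and valine responses were -1.43 and -2.23. The Notch targets HES1 and HES4 and the small nucleolar RNA host SNHG12 followed the same order. Their isoleucine responses lay -1.71, -1.24 and -1.35 from the leucine responses and -2.18, -2.36 and -1.79 from the valine responses, all called.

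The isoleucine and valine responses of the heat shock gene HSPA6 were far apart. This gene (chromosome 1, 161524540 to 161526894, GRCh38.p14) encodes an inducible Hsp70 chaperone. It had 2487, 2069, 2548, 1733 and 2039 normalised counts in isoleucine-restricted libraries and 1870.0, 1407, 1572 and 1506 in control libraries. Only isoleucine library 4 lay below the highest control library, and the log2 fold change was 0.45 ± 0.13 (limma unadjusted p = 0.00383, adjusted p = 0.797). At 25% valine HSPA6 had 5.74 to 38.1 normalised counts against 1411 to 1928 in the control libraries of that table. The isoleucine response exceeded the valine response by 6.91 (interval 6.17 to 7.65, limma adjusted p = 2.94e-08), while the difference from the leucine response was 1.07 with a wide interval of 0.18 to 1.97 (adjusted p = 0.0958). HSPA1A and HSPA1B are near-identical copies whose reads cannot be divided with certainty. Summed, they had 16448, 11858, 15744, 9849.7 and 12684 normalised counts in isoleucine-restricted libraries and 10692, 8765, 10481 and 9815 in control libraries, a log2 fold change of 0.40 with overlapping groups. Taken singly, HSPA1A and HSPA1B were both among the 8 largest called differences above the valine response. HSPA1A was also among the 8 largest above the leucine response, and HSPA1B was not. HSPA1A was the lesser copy, with a mean of 801 normalised counts in isoleucine-restricted libraries against 12515.5 for HSPA1B. The summed copies were not tested against the leucine or the valine response.

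The promoter of HSPA6 is shown because it had the largest difference between the isoleucine and valine responses among the genes whose differences are given here. Only HSPA1A, whose reads are shared with its copy, ranked above it among the called differences of the naming rule. Capitals mark the fixed letters of the heat shock element, GAA, TTC and GAA with 2 free bases after each of the first pair, searched on both strands and here read on the opposite strand, 74 bases before the start.
HSPA6 (chr1:161524290-161524589, plus strand): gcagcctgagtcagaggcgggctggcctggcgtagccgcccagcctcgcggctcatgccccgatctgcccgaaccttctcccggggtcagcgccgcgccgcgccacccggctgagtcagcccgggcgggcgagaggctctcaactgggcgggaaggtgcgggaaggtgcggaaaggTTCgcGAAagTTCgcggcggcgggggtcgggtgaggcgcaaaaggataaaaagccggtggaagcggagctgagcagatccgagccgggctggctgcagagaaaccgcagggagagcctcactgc
That element is present in 172 of 35116 promoters of this length (0.49%). Of 21 cytosolic heat shock genes, 3 were at an unadjusted p below 0.05 for isoleucine, all higher, and 0 were called. Over all genes 3.02% were higher at that level. The 3 were HSPA6 and the near-identical copies HSPA1A and HSPA1B, which are not separate members. Without control library 1, 5 were higher, where 7.1% of all genes were at that level in either direction. At 25% valine 11 fell and 6 rose, and the isoleucine response was higher than the valine response for 12 and lower for 8, and higher than the leucine response for 3 and lower for 8. Over all genes tested the higher and lower shares were 14.4% and 14.1% against valine and 9.14% and 8.39% against leucine.

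**Figure D2:**
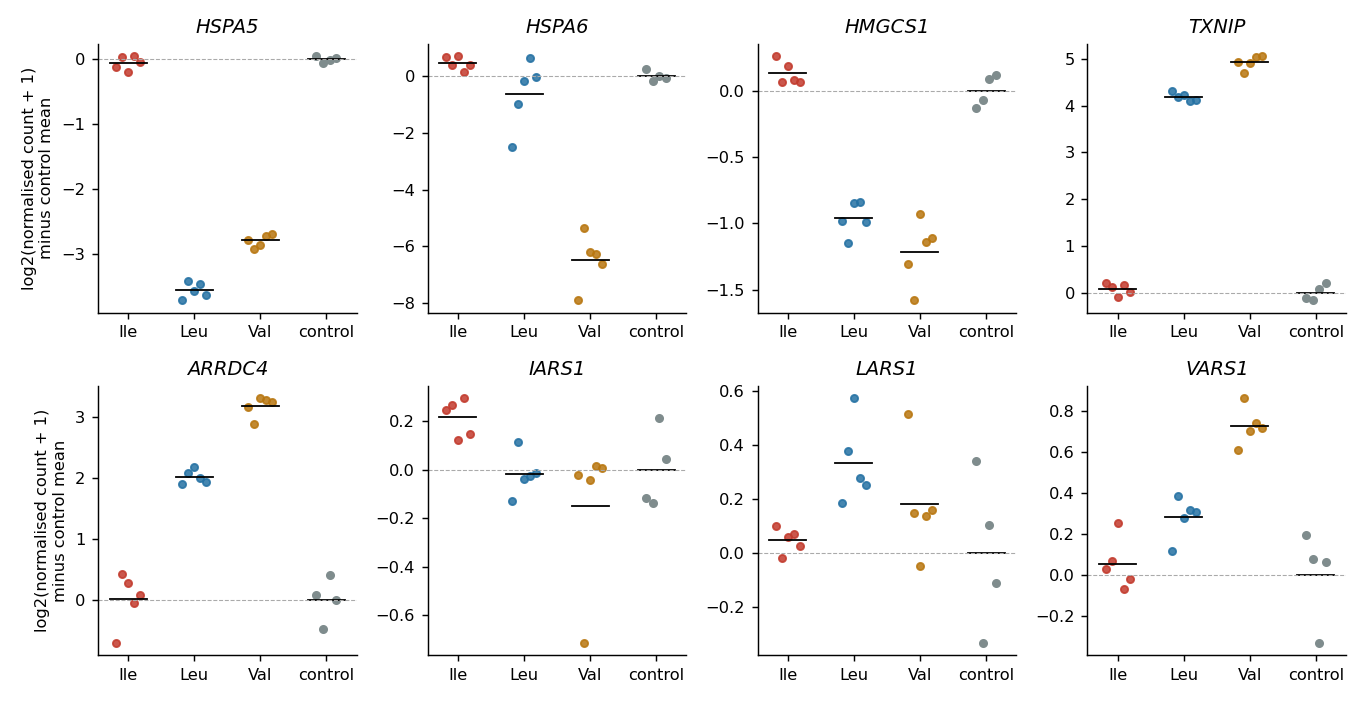
Log2(normalised count + 1) minus the control mean of the same table (vertical axis) for 8 genes, with 5 libraries each at 25% isoleucine (Ile), 25% leucine (Leu) and 25% valine (Val) and the 4 control libraries of the isoleucine table. Points are libraries and bars are means; HSPA5 and TXNIP lie near 0 at 25% isoleucine and several log2 units away at 25% leucine and 25% valine, and IARS1 spans far less.

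Genes of sterol and fatty acid synthesis gave no call at 25% isoleucine. Their transcription is driven by SREBP factors, which are released when membranes lack cholesterol. Of 25 cholesterol synthesis genes, 0 were called and the median was -0.001 for isoleucine, 0.0635 without control library 1 and 0.0307 without control library 4, while 20 fell at 25% leucine and 16 at 25% valine. The isoleucine response was higher than the leucine response for 21 of the 25 and than the valine response for 20, and lower for 0 and 2. Over all genes tested it was higher for 9.14% and 14.4% and lower for 8.39% and 14.1%. Of all genes, 4.33% fell at 25% leucine and 7.36% at 25% valine. HMGCS1, the enzyme before the rate-limiting step, had 1966, 1719, 1867, 1740.0 and 1721 normalised counts in isoleucine-restricted libraries and 1498, 1567, 1741 and 1782 in control libraries, with overlapping groups. Its differences were 1.09 from the leucine response (interval 0.94 to 1.25) and 1.35 from the valine response (interval 1.11 to 1.58), both called.

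Several lipid genes had slightly higher values at 25% isoleucine, none of them called. Log2 fold changes were positive for 12 and negative for 4 of 16 fatty acid synthesis genes, and positive for 12 and negative for 13 cholesterol synthesis genes. At an unadjusted p below 0.05, 2 genes of each list were higher and 0 lower, where 3.02% of all genes were higher and 2.23% lower. SCD, the stearoyl-CoA desaturase, had 20801, 20533, 19825, 19964 and 18092 normalised counts in isoleucine-restricted libraries and 13760.2, 16235, 18529.8 and 18614 in control libraries. Control libraries 1 and 3 were the lowest, isoleucine library 5 fell among the higher controls, and the log2 fold change was 0.25 (limma unadjusted p = 0.0334, adjusted p = 0.797). FADS1, the delta-5 desaturase, had 3763, 3683, 3452, 3796 and 3487 normalised counts in isoleucine-restricted libraries and 3033, 3094, 3368 and 3244 in control libraries, without overlap. Its log2 fold change was 0.19 (limma adjusted p = 0.797), against falls of 0.45 at 25% leucine and 0.97 at 25% valine. SC5D, a late sterol desaturase, was also without overlap, at 736 to 919 in isoleucine-restricted and 693 to 706 in control libraries.

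Targets of the amino acid response gave no call at 25% isoleucine. Of 27 ATF4 target genes, 0 were at an unadjusted p below 0.05, and the median was -0.0238. Without control library 1, 4 were higher and 1 lower at that level and the median was 0.0208, and without control library 4 the median was -0.0721. With control library 1 left out, 7.1% of all genes were at that level in either direction, against 5.25% with all libraries. ASNS, the asparagine synthetase, is a standard readout of that response. It had 748, 677, 685, 816 and 800.2 normalised counts in isoleucine-restricted libraries and 859, 662, 777 and 810.0 in control libraries, fully overlapping, with a log2 fold change of -0.057 (interval -0.29 to 0.17). TRIB3, a pseudokinase that restrains ATF4, had a log2 fold change of -0.16 (interval -0.41 to 0.092), CHAC1, a glutathione-degrading enzyme, one of -0.11 (interval -0.40 to 0.18) and SESN2, the leucine sensor Sestrin2, one of 0.039 (interval -0.16 to 0.23). EIF2AK4, for GCN2 itself, was at 0.12 (interval -0.056 to 0.30), and its isoleucine response exceeded its valine response by 0.40 (limma adjusted p = 0.0181). The isoleucine response of ASNS exceeded its leucine and valine responses, by 0.33 and 0.87 (limma adjusted p = 0.0157 and 0.00247). That of TRIB3 was higher than its leucine response (0.43) and lower than its valine response (-0.56), both called.

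DDIT3, the stress factor CHOP, had 2792, 2395, 2803, 2689 and 2900.1 normalised counts in isoleucine-restricted libraries and 4896, 2119, 2186 and 2228 in control libraries. Control library 1 was above every isoleucine-restricted library and the other 3 controls were below every one, so the fitted log2 fold change of 0.023 had an interval of -0.43 to 0.48. Its isoleucine response exceeded the leucine response by 1.55 and the valine response by 0.71, values in which the shared control libraries cancel. DDIT4, an inhibitor of mTORC1, showed differences of 0.75 and 1.53, and the cystine carrier SLC7A11 showed 0.85 and 1.12, all called. Among ATF4 targets the isoleucine response was higher than the leucine response for 10 of 27 and than the valine response for 15, and lower for 1 and 3. Over all genes tested it was higher for 9.14% and 14.4%, and lower for 8.39% and 14.1%. MTOR itself had 1929, 2140.0, 1854, 1869 and 1998 normalised counts in isoleucine-restricted libraries and 1012, 1914, 1446 and 1872 in control libraries (log2 fold change 0.37, unadjusted p = 0.0397, limma adjusted p = 0.797), with control library 1 the lowest.

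Glycolysis, hypoxia and mitosis genes fell in number at 25% valine and gave no call at 25% isoleucine. Of 23 glycolysis genes 18 fell at 25% valine and 1 at 25% leucine, while the isoleucine median was -0.111 with 0 called (-0.0267 without control library 1), and the isoleucine response was higher than the valine response for 18 and than the leucine response for 3, and lower for 0 and 1. Of 18 hypoxia response genes in the valine comparison 12 fell, and the isoleucine response was higher for 14, against 6 higher and 1 lower of 19 in the leucine comparison. Of 31 mitosis genes 9 fell at 25% valine, the isoleucine median was 0.11, and the isoleucine response was higher than the valine response for 22 and lower for 0. It was higher than the leucine response for 2 mitosis genes and lower for 5. Over all genes tested, the isoleucine response was higher for 9.14% and lower for 8.39% against leucine, and for 14.4% and 14.1% against valine. MKI67, the proliferation marker, had 9160.2, 7637, 8537, 7080.4 and 9539 normalised counts in isoleucine-restricted libraries and 5259, 8787, 9651 and 8246 in control libraries, overlapping, and MYC had 3439 to 4685 in isoleucine-restricted and 3046 to 4208 in control libraries. Ribosome biogenesis genes rose in 7 of 32 cases at 25% leucine and in 8 at 25% valine, and their isoleucine response was lower than these for 14 and 13 genes and higher for 0 and 3. Small nucleolar RNA hosts gave 8 and 9 of 18 with a lower isoleucine response.

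**Figure D3:**
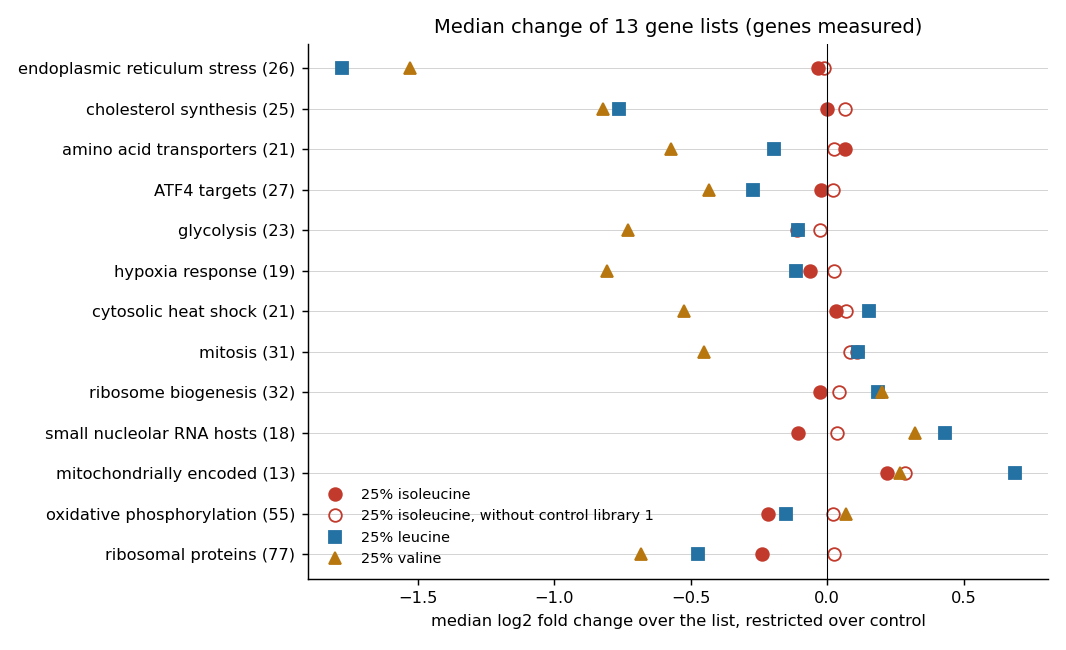
Median log2 fold change, restricted over control (horizontal axis), of 13 gene lists (rows, with genes measured in brackets) at 25% isoleucine, at 25% isoleucine without control library 1, at 25% leucine and at 25% valine. The isoleucine medians lie between -0.239 and 0.217, and those of ribosomal proteins and oxidative phosphorylation move to about 0 without control library 1.

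Some of the genes that ranked highest for isoleucine were called at 25% leucine and 25% valine, against the same control libraries. The ranking used those control libraries too, so a like direction in the other comparisons is not an independent result. ZNF530 (chromosome 19, 57599885 to 57612722, GRCh38.p14), a zinc-finger gene, had 43.3, 50.9, 58.3, 51.8 and 61.6 normalised counts in isoleucine-restricted libraries and 103, 82.3, 169 and 141 in control libraries. Its groups did not overlap, and the log2 fold change was -1.16 ± 0.23 (limma adjusted p = 0.797). It fell by 1.35 at 25% leucine and by 0.89 at 25% valine, and the isoleucine response was not told apart from either (differences 0.19 and -0.27, intervals -0.29 to 0.67 and -0.63 to 0.082). GINS1 (chromosome 20, 25407673 to 25448563) encodes a subunit of the replicative helicase. It had 406, 461, 495, 469.6 and 370.4 normalised counts in isoleucine-restricted libraries and 293, 284, 317 and 256 in control libraries, without overlap, and a log2 fold change of 0.61 ± 0.12 (limma adjusted p = 0.797). GINS1 rose by 0.90 at 25% leucine and by 0.69 at 25% valine, against the same control libraries, and neither difference was called.

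INIP, a subunit of a complex that binds single-stranded DNA, had 748, 569, 644, 699 and 593 normalised counts in isoleucine-restricted libraries and 509.6, 471, 332 and 422 in control libraries. All isoleucine values were higher, with a log2 fold change of 0.59, and INIP rose by 0.78 and 0.83 at 25% leucine and 25% valine. CCNT2, a cyclin of the transcription elongation factor P-TEFb, had 483, 407, 335, 374 and 427 normalised counts in isoleucine-restricted libraries and 265, 304, 225 and 255 in control libraries, also without overlap (log2 fold change 0.62). CEP290, a ciliary protein gene, was at 377 to 517 in isoleucine-restricted and 248 to 355 in control libraries, LCORL, a transcription factor gene, at 339 to 461 in isoleucine-restricted and 151 to 289 in control libraries, and the zinc-finger gene ZNF780B at 173 to 392 in isoleucine-restricted and 117 to 168 in control libraries. The splicing kinase gene PRPF4B was at 563 to 1100.4 in isoleucine-restricted and 231 to 548 in control libraries, where the lowest isoleucine library and the highest control library were at 563 and 548. GDAP1, a mitochondrial outer membrane gene, was at 314 to 381 in isoleucine-restricted libraries and at 82.3 to 283 in control libraries, where control library 4 was the lowest and the other 3 lay at 272 to 283. The log2 fold change of GDAP1 was 0.73, and 0.30 without control library 4.

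On the lower side, BATF, a transcription factor of activated T cells, had 76.2, 96.7, 89.2, 112 and 75.3 normalised counts in isoleucine-restricted libraries and 205, 149, 114 and 134 in control libraries, without overlap. The log2 fold change was -0.72 ± 0.20 (limma adjusted p = 0.797), and the isoleucine response lay below the valine response (-0.88, interval -1.29 to -0.47, adjusted p = 0.00376), in which BATF was not called. MISP3 was at 43.6 to 57.7 in isoleucine-restricted and 68.6 to 163 in control libraries. MAGED4B and its near-identical copy MAGED4 are best read together. Summed, they had 1019, 797, 1143, 839.8 and 1046 normalised counts in isoleucine-restricted libraries and 1378, 1236, 1226 and 1212 in control libraries, still without overlap, and the log2 fold change was -0.39 in place of -1.01 for MAGED4B alone.

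SMIM11, a small membrane protein gene, also has a listed copy. It had 209, 260.1, 164, 237 and 99.3 normalised counts in isoleucine-restricted libraries and 13.0, 16.6, 34.1 and 118 in control libraries, a log2 fold change of 2.54 and the fifth smallest p of all genes. ENSG00000273590, which GENCODE v29 names SMIM11B and places at chromosome 21, 7744962 to 7777853 of GRCh38, had 126, 115, 170.2, 139.9 and 184 in isoleucine-restricted libraries and 417, 287, 286 and 201 in control libraries, a log2 fold change of -0.99. Summed over both, the libraries had 335, 375, 334, 377 and 283 normalised counts with isoleucine restriction and 429.9, 304, 319.7 and 319.6 in control cells. The sums overlapped and the log2 fold change was -0.0036, so the combined level of the 2 copies did not separate the groups.

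Among noncoding RNAs, MALAT1, an abundant nuclear transcript, had 1285, 713, 523, 990.4 and 897 normalised counts in isoleucine-restricted libraries and 572, 290.1, 332 and 251 in control libraries. Isoleucine library 3 lay below control library 1, and the log2 fold change was 1.29 ± 0.27 (limma unadjusted p = 0.00034, adjusted p = 0.797). At 25% leucine MALAT1 rose by 1.72. The gene ranked first by p, ENSG00000261459, was listed at 0 in all 4 control libraries and had 14.0, 17.2, 18.4, 25.4 and 21.7 normalised counts in isoleucine-restricted libraries (limma adjusted p = 0.0582). It is annotated as AC002310.5, protein coding, at chromosome 16, 30525923 to 30534852 in GENCODE v29 on GRCh38. At these levels it fell below the minimum of 100 set for naming, as did GALNT4, and both are named after their values were seen. GALNT4, a glycosyltransferase gene, had 87.0, 45.6, 70.9, 53.9 and 58.8 normalised counts in isoleucine-restricted libraries and 4.94, 41.4, 0 and 0 in control libraries, and without control library 3 it was called (limma adjusted p = 0.0438).

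**Figure D4:**
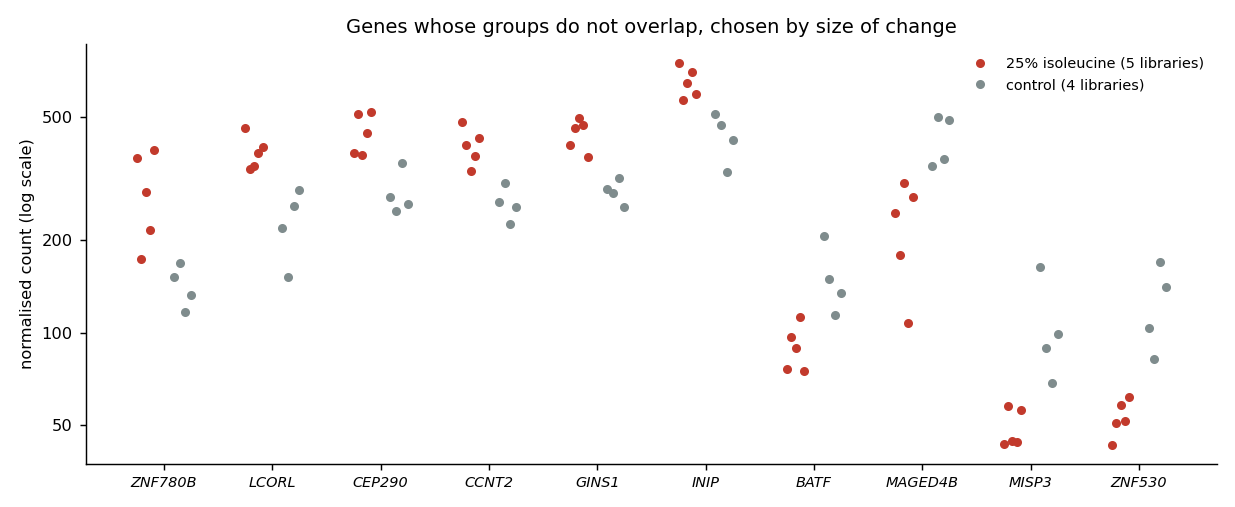
Normalised count (vertical axis, log scale) in each of 5 isoleucine-restricted and 4 control libraries for 10 genes whose groups do not overlap, ordered from left to right by falling log2 fold change. Points are libraries; the genes were chosen for their separation, and none was called.

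Of 38 DNA replication genes 4 were at an unadjusted p below 0.05, all higher, where 3.02% of all genes were higher at that level, and 0 were called. The list had 25 positive and 13 negative values and a median of 0.0278, which was 0.105 without control library 1 and 0.0109 without control library 4. RRM1, the large subunit of ribonucleotide reductase, had 2512, 2346, 2365, 2519 and 2314 normalised counts in isoleucine-restricted libraries and 1946, 2019.6, 2114 and 1939 in control libraries. Its groups did not overlap, and the log2 fold change was 0.27 (limma adjusted p = 0.797). MTHFD1, a folate enzyme, was at 2049.9 to 2477 in isoleucine-restricted and 1716 to 2033 in control libraries, without overlap.

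T cell genes gave 0 calls among 32 genes of T cell receptor signalling, with a median of -0.0273, which was 0.0307 without control library 1 and -0.084 without control library 4. PTPRC, the phosphatase CD45, had 8524, 8148, 6851, 8327 and 9263 normalised counts in isoleucine-restricted libraries and 4402, 6358, 7098 and 7290.0 in control libraries (log2 fold change 0.41, unadjusted p = 0.0145, limma adjusted p = 0.797). Control library 1 was again the lowest. TRBC2, a constant segment of the T cell receptor, had 2171, 2349, 2442, 2353 and 2354 normalised counts in isoleucine-restricted libraries and 5667, 2509, 2508 and 2472 in control libraries. The groups did not overlap, but 3 of the control values lay just above the isoleucine values and control library 1 lay far above them, with a fitted log2 fold change of -0.39.

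Of 40 autophagy and lysosome genes 1 was higher and 2 were lower at an unadjusted p below 0.05. Over all genes, 3.02% were higher and 2.23% lower at that level, so the list lay near the background. ATG7, an activating enzyme of autophagosome formation, had 146, 181, 178, 196 and 184 normalised counts in isoleucine-restricted libraries and 269, 206, 232 and 255 in control libraries, without overlap. WIPI1, a phosphoinositide-binding autophagy protein, had 293, 276, 292, 329 and 282 in isoleucine-restricted and 422, 375, 322 and 404 in control libraries. The log2 fold changes were -0.44 and -0.37 (limma adjusted p = 0.797 for both), and WIPI1 fell by 1.71 and 1.77 at 25% leucine and 25% valine. Among p53 targets PHLDA3, an inhibitor of Akt, was at 163 to 197 in isoleucine-restricted and 181 to 380.1 in control libraries. EIF2B5, a subunit of the guanine exchange factor for eIF2, was at 786 to 943 in isoleucine-restricted and 949.9 to 1302 in control libraries, without overlap.

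Control library 1 carried more ribosomal protein mRNA than any other library. These mRNAs took 6.94% to 7.71% of normalised counts in isoleucine-restricted libraries, and in control libraries they took 12.5% in library 1 and 7.14% to 7.5% in the other 3. Of 77 ribosomal protein genes 76 had a negative log2 fold change, with a median of -0.239, without control library 1 the median was 0.0245, and without control library 4 it was -0.351. For 55 nuclear genes of oxidative phosphorylation 52 were negative with a median of -0.217, and without control library 1 the median was 0.0204 (-0.288 without control library 4). RPS19, a small-subunit protein gene, had 12597, 14428, 13652, 15059.7 and 13564 normalised counts in isoleucine-restricted libraries and 37005, 15025, 16943 and 17710.2 in control libraries, and NDUFA13, of respiratory complex I, had 1568, 1796, 1903, 1842 and 1572 in isoleucine-restricted and 4139, 1935, 1958 and 1969.7 in control libraries. Without control library 1 no gene was called, and 1184 genes (7.1%) were at an unadjusted p below 0.05.

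Transcripts encoded in the mitochondrial genome leaned the other way. They took 1.9% to 3.14% of normalised counts in isoleucine-restricted libraries and 1.73% to 2.1% in control libraries, with isoleucine libraries 1 and 5 the highest at 3.14% and 2.89%. Of 13 such genes 12 had a positive log2 fold change, and the median was 0.217, 0.284 without control library 1 and 0.127 without control library 4. MT-ND4L, of respiratory complex I, had 5845, 3765, 3147, 3305 and 6132 normalised counts in isoleucine-restricted libraries and 1904, 2759.8, 2291 and 3013 in control libraries. Its groups did not overlap, with a log2 fold change of 0.80 ± 0.21 (limma adjusted p = 0.797), and it rose by 1.37 at 25% leucine. The isoleucine response was lower than the leucine response for 6 of the 13 genes and told apart from the valine response for 0. Over all genes tested it was lower than the leucine response for 8.39% and differed from the valine response for 28.5%.

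**Figure D5:**
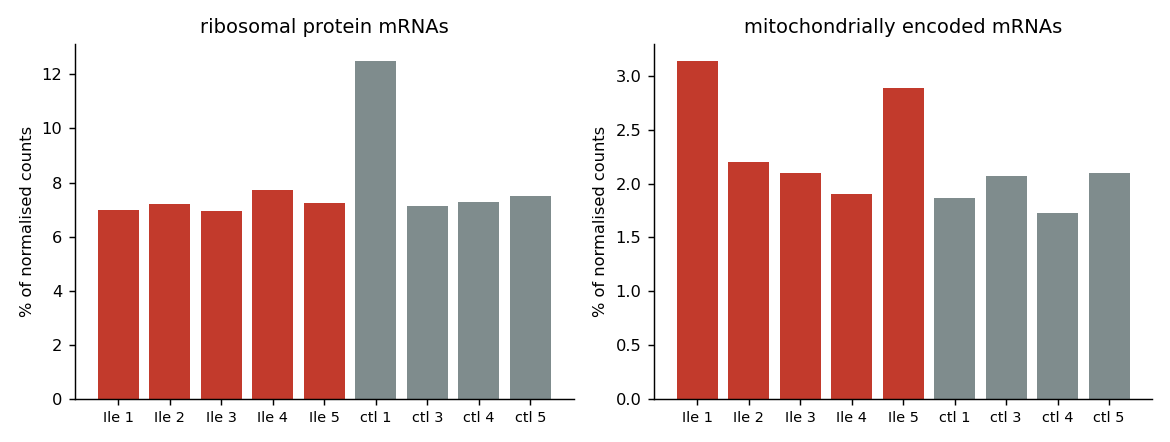
Share of normalised counts (percent, vertical axis) taken by ribosomal protein mRNAs (left) and by mitochondrially encoded mRNAs (right) in the 5 isoleucine-restricted (Ile) and 4 control (ctl) libraries. Control library 1 stands apart at 12.5% on the left, and isoleucine libraries 1 and 5 are highest on the right.

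Fitted changes were related to the base composition of the coding sequence. Coding sequences from GENCODE v29, the longest per gene, were found for 12605 of 12666 protein-coding genes tested. These genes were split into 5 equal groups by GC content. The median log2 fold change was 0.108 in the group with the lowest GC content (median 41.4%) and -0.109 in that with the highest (median 64.6%). Spearman's rho across genes was -0.382, -0.221 without control library 1 and -0.463 without control library 4. Coding length had a rho of 0.295, which was -0.0401 without control library 1. The share of isoleucine codons had a rho of 0.18, which was 0.115 without control library 1, and the median log2 fold change was -0.0832 in the group of 5 with the fewest isoleucine codons (median 1.92%) and 0.0331 in that with the most (6.56%). Without control library 1 these medians were -0.0125 and 0.0401. Isoleucine codons are rich in A and T, and within the 5 GC groups the rho with isoleucine codons lay between -0.0767 and 0.0258. Genes are not independent replicates, all values share the same 9 libraries, and these relations are given as a description.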

How the data were processed

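Strand-specific libraries were made from 1 µg of total RNA, per the labels' protocols. For each amino acid the authors deposited a table of normalised counts, a signal with no negative value. Per the submitters' processing notes, the authors used DESeq2 1.44.0, kallisto 0.50.1 and FastQC 0.11.9 with GRCh38; no source states the annotation release. Kallisto divides reads among similar transcripts, so near-identical copies are uncertain. Low values were whole multiples of 1 step, within 0.1, for 74.6% to 81.8% of cases in isoleucine-restricted libraries and 49.9% to 80.6% in control libraries. Whole reads were therefore not recovered, the read depth is unknown, and no count model was fitted.

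Genes with a mean of at least 10 over the libraries of a table entered limma 3.58.1 (R 4.3.3) as log2(normalised count + 1), fitted with lmFit and eBayes with an intensity trend and tested two-sided, with Benjamini-Hochberg adjustment over all genes tested, and called below 0.05. A fold change on this scale understates the change of low genes. Python 3.11.15, pandas 2.3.3, numpy 2.4.6, matplotlib 3.10.9 and the R package data.table (1.17.8) were also used. The tables were scaled separately. The factor between 2 tables differed by gene but was the same in all 4 control libraries, within 1e-06 on the log2 scale, for all 20314 genes shared by the isoleucine and leucine tables and all 20313 shared by the isoleucine and valine tables, so that subtracting the control mean removes it. The fits were tested on simulated data.

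The 33 gene lists hold 866 genes, of which 833 were tested, 8 were not in the table and 25 were below the minimum. Members, lists and tests were chosen with earlier results of these data known. Genes were named by a fixed rule: the 12 largest log2 fold changes in each direction among genes without overlap and with a mean of at least 100 in the higher group, the 10 smallest p with such a mean, a set of amino acid and stress genes, the leading members of each list, and the 8 largest called differences in each direction. To save space not all of these are given, and a few are not reported here. Of the genes tested, 41 have a row identical to another gene's. Replicate numbers were checked for pairing among the isoleucine and control libraries only. There 0 of 4 control libraries correlated best with their own number, but 4 correlations cannot show that libraries are unpaired.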

Additional observations from a re-analysis of the deposited data

Results flagged for a closer look

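In 11 of 143 groups of 4 or 5 libraries tested among the genes named, 1 library lay far from the rest of its group, where chance gives about 1 in 20. In 8 of these it was control library 1, and it was the highest each time. That library had 2607 normalised counts of BCKDHA, 4896 of DDIT3, 37005 of RPS19 and 4139 of NDUFA13. It also had 3156 of CRELD2, 5667 of TRBC2, 16198 of MANF and 8185 of SDF2L1. Control library 4 was the low one for GDAP1 at 82.3 and for SESN2 at 1762, and control library 3 was the high one for GALNT4 at 41.4. No isoleucine-restricted library stood apart in this way for a gene named.

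The isoleucine response differed from the leucine response for 2844 genes and from the valine response for 4647, by a test of the difference itself. Among the genes whose differences are described above, the isoleucine response was lower than the leucine response for TXNIP (-4.11), ARRDC4 (-2.01), KLF10 (-1.43), HES1 (-1.71), HES4 (-1.24) and SNHG12 (-1.35). It was also lower for the synthetase genes LARS1 (-0.29), VARS1 (-0.23) and IARS2 (-0.18). It was higher for HSPA5 (3.51), HSP90B1 (2.87), PDIA4 (2.69), HYOU1 (2.24) and HMGCS1 (1.09), and for DDIT4 (0.75), DDIT3 (1.55) and SLC7A11 (0.85). It was higher, too, for IARS1 (0.23), SLC43A1 (0.83), QARS1 (0.65), ASNS (0.33) and TRIB3 (0.43).

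Against the valine response it was lower for TXNIP (-4.85), ARRDC4 (-3.16), KLF10 (-2.23), HES1 (-2.18), HES4 (-2.36) and SNHG12 (-1.79), and for VARS1 (-0.67), BATF (-0.88), TRIB3 (-0.56) and BCAT2 (-0.36). It was higher for HSPA5 (2.74), HSP90B1 (2.64), PDIA4 (2.46), HYOU1 (1.56), HSPA6 (6.91) and HMGCS1 (1.35). The same held for DDIT4 (1.53), DDIT3 (0.71), SLC7A11 (1.12), SLC43A1 (0.73), BCKDK (0.87) and BCKDHA (0.77). It held as well for IARS1 (0.37), QARS1 (1.48), ASNS (0.87), BCAT1 (0.63) and EIF2AK4 (0.40). All are log2 differences called by limma, and genes named without a difference are not listed.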

How the results depend on the processing

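The count of called genes for isoleucine was 0 or 1 under every alternative run. It was 1 with no filter on low values (ENSG00000261459) and 1 with no intensity trend (the same gene), and 0 to 1 when a library was left out, GALNT4 without control library 3 and SMIM11 without control library 5. Genes at an unadjusted p below 0.05 numbered 1510 with no filter and 555 at a mean of at least 100, where more or fewer genes were tested, and 559 to 1630 when a library was left out. Groups did not overlap for 519 genes with no filter and for 461 to 1100 with a library fewer. Leucine calls numbered 724 with no intensity trend, 2699 with library weights and 511 to 1674 with a library left out. Valine calls numbered 4549 with library weights and 1110 to 2657 with a library left out. The cause of the moves under the weights and the trend was not tested. Counts of differing responses stayed within 1.5 times under all alternatives, 2268 to 3496 against leucine and 3731 to 5717 against valine with a library left out. With the replicate number as a block, which drops isoleucine library 2, 525 genes were at an unadjusted p below 0.05 for isoleucine. The block also drops leucine library 2 and valine library 2. With it 834 genes were called for leucine, against 1277 in the main fit, and 3067 for valine, against 2096. Leaving out valine library 2 alone gave 2595 calls for valine. No label says that a number marks a shared culture or day: the correlations of same-numbered libraries were -0.116, 0.122, -0.0695 and -0.0414, and 0 of 4 control libraries correlated best with their own number.

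Of 1134 alternatives for the differences described gene by gene, 1076 kept their side of the threshold, 49 lost the call, 9 gained it and 0 reversed. The lost calls were those of VARS1 (11) and IARS2 (8) against leucine and of IARS1 (11), BCAT2 (10) and BCAT1 (9) against valine. The gained ones, all against leucine, were those of BATF (4), BCKDHA (2), BCKDK (2) and HSPA6 (1). For HSPA6 it came without leucine library 4, and for BCKDHA and BCKDK without leucine library 2 or with library weights. Of 594 alternatives for list medians 6 moved beyond the spread between libraries, in amino acid transporters, cholesterol synthesis and ribosome biogenesis. No read depth is known, so no counting error can be given.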
